A study of Homo sapiens with 12 samples.

Results

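The primary granule protein genes are the 10 genes MPO, ELANE, PRTN3, AZU1, CTSG, PRSS57, RNASE2, RNASE3, MS4A3 and CST7. They were found by their gene symbols. All 10 were found among the 20003 genes of the mRNA-seq, and all 10 passed the filter on low values in every comparison.

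Expression was measured in 12 samples of acute myeloid leukemia (AML) cell lines, with 3 samples in each of 4 groups. NB4 was derived from an acute promyelocytic leukemia (APL) and expresses the PML-RARα fusion, and Kasumi-1 was derived from an AML of the M2 subtype and expresses AML1-ETO. In each cell line, control cells received DMSO and treated cells received 1 μM OGP46, a compound known here by its code name, and both were kept for 48 h. In another place the study gives a longer incubation for the sequenced cells. The comparison asks how the granule genes respond to OGP46 in 2 lines with different fusion genes. Each line is a culture from a single patient's leukemia, so a difference between NB4 and Kasumi-1 cannot be told apart from a difference between these fusions. The study states that its experiments were repeated, but neither it nor any label ties the samples sequenced here to separate cultures, so p-values measure only the spread between these samples.

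Primary (azurophil) granules are made at the promyelocyte stage of myeloid development, and transcription of their protein genes is switched off as the cells mature. The granules store myeloperoxidase, which makes hypochlorous acid from hydrogen peroxide, and a family of neutrophil serine proteases, which digest microbes and matrix. C/EBP, PU.1, MYB and RUNX1 (AML1) are the transcription factors known to drive many of these genes.

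Values are FPKM, in which fragment numbers are divided by exon length and by the mapped total of the sample, so levels of different genes can be set side by side. A sample's FPKM added up to 248207 at least and 310262 at most, and sequencing depth is unknown because no read counts were used. Markers of the AML1-ETO line (RUNX1T1, POU4F1, TRH, CD34, KIT, PROM1 and CAV1) summed to 263 to 299 FPKM in Kasumi-1 controls and to 0.563 to 3.60 FPKM in NB4 controls. PROM1 and CAV1 were listed at 0 in both lines. Of 7 APL markers, STAB1, PGBD5 and IGFBP2 were higher in NB4, while CLEC11A, FGF13 and HGF were higher in Kasumi-1. The sum of the 7 was higher in Kasumi-1 controls (721 to 848 FPKM) than in NB4 controls (411 to 537 FPKM). The NB4 samples also held a trace of signal of genes that mark Kasumi-1. Over 13 genes with at least 20 FPKM in every Kasumi-1 sample and near 0 in at least 1 NB4 sample, the median level was 0.0798%, 0.272% and 1.11% of the Kasumi-1 control level in NB4 controls 1, 2 and 3, and 0.0449% to 0.0759% in NB4 cells with OGP46. In the other direction, Kasumi-1 control 2 held 1.57% of the NB4 control level over 10 genes, and the other Kasumi-1 samples held 0.131% to 0.199%.

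The genes lie on 5 chromosomes (GENCODE release 29, hg38). AZU1 (chr19:825097-832018), PRTN3 (chr19:840960-848175) and ELANE (chr19:851014-856247) lie next to each other on the plus strand, and PRSS57 (chr19:685546-695498, minus strand) lies on the same chromosome. CTSG (chr14:24573522-24576260, minus strand), RNASE3 (chr14:20891399-20892348) and RNASE2 (chr14:20955452-20956436) lie on chromosome 14. MPO lies at chr17:58269856-58280935 on the minus strand, MS4A3 at chr11:60056587-60071128 and CST7 at chr20:24949230-24959928, both on the plus strand. RNASE2 and RNASE3 are recent duplicates, and 3.26% and 5.37% of their 50-base stretches of transcript occur in another gene, each other included, so a small part of their reads may have been shared out between them. For AZU1 this share was 4.66%, and for the other 7 genes it was 0. PRSS57 overlaps the pseudogene RPS2P52 on the other strand, and whether the counting used strand is not given in the sources used here.

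RefSeq promoter sequences (GRCh38.p14) were available for 7 of the genes. The sequences of 6 of them are shown because they include 5 genes called lower with OGP46 in 1 or both lines and the close pair RNASE2 and RNASE3. Each is the 250 bases before the RefSeq transcription start, read 5′ to 3′ on the gene's own strand, and capitals mark motif matches on either strand. These starts differ from the GENCODE gene positions given above, and the AZU1 window lies inside the gene span given there. The letters searched for the C/EBP family were TTGCNNAA. Those for PU.1 and the other ETS factors were GAGGAA, a purine-rich core. For MYB the search used AACNGNC, in which N is any base. For the RUNX family, to which AML1 belongs, it used TGTGGT, and for a TATA box it used TATAAA. Matches were counted in a window of 300 bases, which holds 50 more bases after the start, and no matches overlapped. The windows shown are chr19:840749-840998 (PRTN3, plus strand), chr19:827587-827836 (AZU1, plus strand), chr14:24576251-24576500 (CTSG, minus strand), chr11:60056415-60056664 (MS4A3, plus strand), chr14:20955237-20955486 (RNASE2, plus strand) and chr14:20891135-20891384 (RNASE3, plus strand).
PRTN3: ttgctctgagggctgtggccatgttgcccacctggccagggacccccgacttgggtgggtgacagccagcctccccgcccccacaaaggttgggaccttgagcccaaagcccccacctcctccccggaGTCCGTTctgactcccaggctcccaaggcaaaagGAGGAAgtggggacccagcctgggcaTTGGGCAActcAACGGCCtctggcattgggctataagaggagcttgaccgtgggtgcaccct
AZU1: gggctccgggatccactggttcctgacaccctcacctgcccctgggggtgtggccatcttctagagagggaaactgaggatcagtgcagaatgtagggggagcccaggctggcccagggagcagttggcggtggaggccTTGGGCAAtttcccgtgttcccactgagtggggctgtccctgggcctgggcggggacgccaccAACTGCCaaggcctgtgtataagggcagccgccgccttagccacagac
CTSG: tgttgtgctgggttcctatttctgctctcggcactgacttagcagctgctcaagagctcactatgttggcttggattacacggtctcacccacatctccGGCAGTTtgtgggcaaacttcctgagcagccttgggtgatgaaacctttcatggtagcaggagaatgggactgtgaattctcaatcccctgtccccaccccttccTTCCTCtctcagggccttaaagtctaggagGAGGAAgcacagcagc
MS4A3: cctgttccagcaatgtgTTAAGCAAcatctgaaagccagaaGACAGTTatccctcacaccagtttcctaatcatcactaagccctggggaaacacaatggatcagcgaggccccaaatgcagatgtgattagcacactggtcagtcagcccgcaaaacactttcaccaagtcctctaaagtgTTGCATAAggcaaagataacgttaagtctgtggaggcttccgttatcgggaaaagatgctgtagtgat
RNASE2: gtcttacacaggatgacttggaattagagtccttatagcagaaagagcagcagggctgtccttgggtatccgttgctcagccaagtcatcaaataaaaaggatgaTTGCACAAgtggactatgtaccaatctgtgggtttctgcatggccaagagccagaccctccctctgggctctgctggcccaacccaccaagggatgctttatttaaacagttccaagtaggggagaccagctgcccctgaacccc
RNASE3: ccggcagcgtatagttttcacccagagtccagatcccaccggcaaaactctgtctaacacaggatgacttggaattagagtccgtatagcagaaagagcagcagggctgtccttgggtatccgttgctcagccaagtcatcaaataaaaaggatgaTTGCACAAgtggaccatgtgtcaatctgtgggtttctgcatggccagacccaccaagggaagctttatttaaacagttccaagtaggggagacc
Of the 7 promoter windows, 5 held the C/EBP letters, against 10.5% of 35116 promoters of the same length. PRTN3 and AZU1 held the same 8 bases, TTGGGCAA, at positions -62 and -111 from the start. RNASE2 and RNASE3 shared TTGCACAA, at -145 and -94, and 192 of 199 aligned bases (96.5%) of their shown sequences were identical. The MYB letters were in 5 of 7 windows, against 32.2% of all promoters, the PU.1 or ETS letters in 3 of 7, against 27.9%, and the RUNX letters in 1 of 7 (PRSS57), against 13.1%. TATAAA was in 0 of 7 windows, against 11.5%. These matches describe letters in a window, not binding.

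Without OGP46, the 2 cell lines carried the same granule genes at very different levels. MPO, the gene of myeloperoxidase, was at 2394, 3323 and 2972 FPKM in the NB4 controls and at 5007, 5191 and 4874 FPKM in the Kasumi-1 controls. It ranked 3 of all genes by mean level in NB4 controls and 2 in Kasumi-1 controls, and the groups did not overlap. On the log2(FPKM + 0.1) scale it was lower in NB4 by limma, with a log2 difference of -0.81 (SE 0.13, adjusted p = 4.8e-04). It was not called after quantile normalization (-0.28, adjusted p = 0.120) or without the filter on low values (adjusted p = 0.396). In bulk samples such as these, fewer cells that express a gene and less RNA of it per cell cannot be told apart.

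The serine protease family was lower in NB4 than in Kasumi-1. PRTN3 (proteinase 3, the target of autoantibodies in granulomatosis with polyangiitis) was at 146, 449 and 259 FPKM in NB4 controls and at 2941, 3677 and 2523 FPKM in Kasumi-1 controls, 10.7-fold higher in Kasumi-1. AZU1 (azurocidin, an antimicrobial protein that has lost protease activity) was at 45.5, 83.2 and 57.6 FPKM in NB4 and at 976, 1189 and 783 FPKM in Kasumi-1, 15.8-fold higher in Kasumi-1. Neither gene's groups overlapped. PRSS57 (neutrophil serine protease 4) was at 49.7, 88.3 and 72.1 FPKM in NB4 and at 486, 539 and 406 FPKM in Kasumi-1, 6.81-fold higher in Kasumi-1. CTSG (cathepsin G) was the closest of the family, with 18.2, 86.3 and 29.5 FPKM in NB4 and 111, 144 and 79.8 FPKM in Kasumi-1. Its groups overlapped, because NB4 control 2 lay above the lowest Kasumi-1 control. In NB4 control 3, which held the most Kasumi-1 signal, that signal would give 33.9 FPKM of PRTN3, 10.9 FPKM of AZU1, 5.30 FPKM of PRSS57 and 1.24 FPKM of CTSG, all below the levels measured.

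ELANE (neutrophil elastase) differed most. It was at 1445, 1717 and 1352 FPKM in the Kasumi-1 controls and at 0.504, 3.30 and 14.5 FPKM in the NB4 controls, which is 247-fold between the means. Its log2 difference of -8.91 (SE 0.90) was the lowest of 12302 genes tested. The trace of Kasumi-1 signal in the same NB4 samples would by itself give 1.20, 4.09 and 16.7 FPKM of ELANE, more than was measured in each, so the ELANE level of NB4 cells themselves was not resolved. PRTN3, whose gene ends 2839 bases before ELANE begins, exceeded ELANE 1.87 to 2.14-fold in Kasumi-1 controls and 17.9 to 291-fold in NB4 controls.

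The remaining genes were higher in NB4. RNASE2 (eosinophil-derived neurotoxin) was at 174, 214 and 183 FPKM in NB4 controls and at 28.5, 44.3 and 37.4 FPKM in Kasumi-1 controls, 5.18-fold higher in NB4. RNASE3 (eosinophil cationic protein) was at 20.9, 28.9 and 16.5 FPKM against 1.18, 2.23 and 1.97 FPKM, 12.3-fold higher in NB4. Both encode ribonucleases best known from eosinophil granules, and their groups did not overlap. MS4A3, a membrane protein that marks granulocyte and monocyte progenitors, was at 37.6, 60.7 and 38.6 FPKM against 4.95, 3.76 and 3.64 FPKM, 11.1-fold higher in NB4. CST7 (cystatin F, an inhibitor of cathepsins that activate granule proteases) was at 51.1, 67.7 and 60.3 FPKM against 3.90, 6.51 and 1.82 FPKM, 14.6-fold higher in NB4. In Kasumi-1 control 2, the trace of NB4 signal would give 0.935 FPKM of CST7, 0.346 FPKM of RNASE3 and 0.715 FPKM of MS4A3, all below the levels measured.

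By limma with Benjamini-Hochberg adjustment over all genes, 6 of the 10 genes were lower in NB4 controls, where 29.7% of all genes were, and 4 were higher, where 22.7% of all genes were. CTSG had the highest adjusted p of the 10 (log2 difference -1.59, SE 0.48, adjusted p = 0.0147), and without NB4 control 3 or without Kasumi-1 control 2 its adjusted p was 0.0542 and 0.0636. Within a line, the order of levels was clear at the top and blurred below. In NB4 controls, MPO exceeded PRTN3 and RNASE2, whose ranges overlapped, and the ranges of PRSS57, AZU1, CST7, MS4A3 and CTSG overlapped further down. In Kasumi-1 controls, MPO, PRTN3, ELANE, AZU1, PRSS57, CTSG and RNASE2 followed each other with no overlap between neighbours, and only MS4A3, CST7 and RNASE3 at the bottom overlapped.

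**Figure D1:**
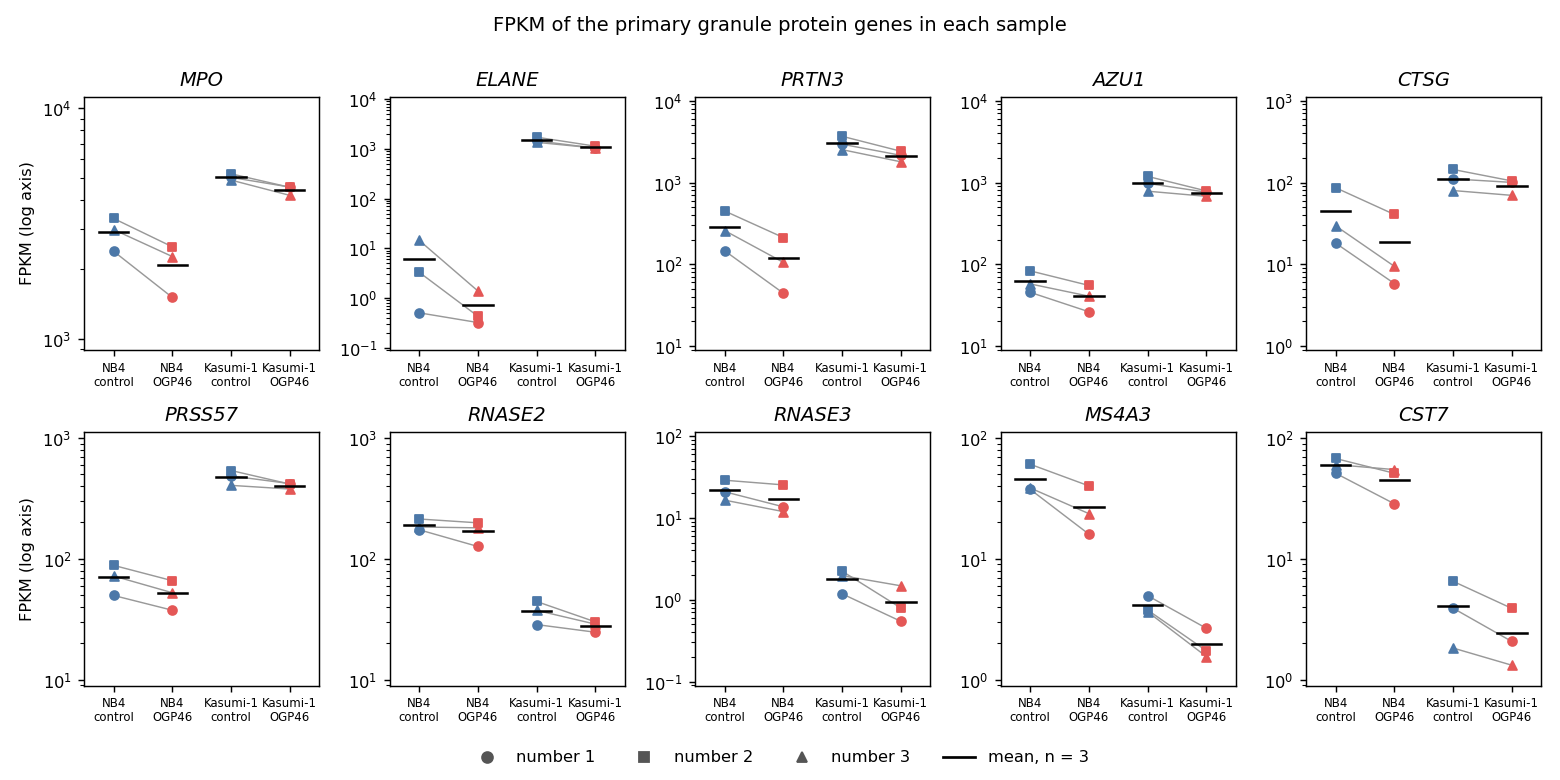
FPKM (log axis, each gene with its own range) of the 10 primary granule protein genes in each of the 12 samples, with symbols for the sample numbers, grey lines joining same-numbered samples and black bars for the mean of 3 samples. Every grey line falls from control to OGP46, ELANE in NB4 lies between 0.321 and 14.5 FPKM against 1035 FPKM or more in Kasumi-1, and RNASE2, RNASE3, MS4A3 and CST7 are the genes higher in NB4.

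After OGP46 incubation, all 10 genes were lower than in the control of the same number in all 3 pairs of NB4 cells, where 6.32% of 11750 genes were, and in all 3 pairs of Kasumi-1 cells, where 13.8% of 11835 genes were. Of the 10904 genes tested in both lines, 2.38% were lower in all 6 pairs. The 10 genes were chosen with earlier results of these data known, so these shares are descriptions. The pairs matter because same-numbered control and OGP46 samples of a line deviated from their group means together. The controls themselves varied: NB4 control 2 was the highest of the NB4 controls for every gene but ELANE, and NB4 OGP46 sample 2 was the highest of the NB4 cells with OGP46 for 8 of the 10 genes.

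In NB4 cells, the fit without the sample numbers called 0 of the 10 genes lower, against 0.111% of all genes, and 0 higher, against 1.45%. At an unadjusted p below 0.05, MPO, PRTN3 and MS4A3 were lower. No gene had all 3 OGP46 samples below all 3 controls, which 1.91% of all genes had. With the sample number as a block, limma called 5 of 10 lower, AZU1, CTSG, ELANE, MS4A3 and PRTN3, against 1.15% of all genes (135 genes), and 0 higher, against 5.06% (595 genes). When the Kasumi-1 signal was subtracted as well, 3 were called lower, since AZU1 (-0.52) missed the fold threshold and ELANE the filter on low values. When each sample was also centred on its median, the split of all genes was 203 lower and 188 higher. The median log2 fold change of the 10 genes was -0.56, and that of all genes was 0.18, which moved to 0.06 with TPM scaling and to -0.04 with median centring. Leaving out 1 sample gave medians of the 10 genes from -0.81 (without OGP46 sample 2) to -0.32 (without OGP46 sample 1). All 10 genes kept a log2 fold change below 0 in NB4 under TPM scaling, median centring and quantile normalization.

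Among the proteases of NB4 cells, PRTN3 and CTSG had the largest fold changes beside ELANE. PRTN3 was at 44.3, 212 and 106 FPKM with OGP46, and the ratios to the control of the same number were 0.303, 0.473 and 0.408. The log2 fold change was -1.36 (SE 0.11, adjusted p = 1.4e-05 with the block, SE 0.56, adjusted p = 0.155 without it). CTSG was at 5.82, 40.7 and 9.45 FPKM, with ratios of 0.321, 0.471 and 0.320. Its log2 fold change was -1.45 (SE 0.11, adjusted p = 1.2e-05 with the block, SE 0.75, adjusted p = 0.228 without it). In both genes the OGP46 sample 2 lay above 1 or more controls, so the groups overlapped although OGP46 was lower in each pair. Without that sample and without the block, PRTN3 (adjusted p = 0.0489), CTSG (adjusted p = 0.0472) and MS4A3 (adjusted p = 0.0328) were called lower.

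AZU1 and PRSS57 had smaller fold changes. AZU1 was at 26.3, 55.2 and 40.8 FPKM with OGP46. The log2 fold change was -0.62 (SE 0.08, adjusted p = 6.4e-04 with the block, adjusted p = 0.185 without it). PRSS57 was at 37.5, 65.9 and 52.4 FPKM, with ratios between 0.726 and 0.754 in the 3 pairs. Its log2 fold change of -0.43 (SE 0.08, adjusted p = 0.0031 with the block) was below the fold threshold of 0.58 on the log2 scale. When the Kasumi-1 signal was subtracted from the NB4 samples and the block kept, PRTN3 (-1.31) and CTSG (-1.43) were still called, while AZU1 had a log2 fold change of -0.52, below the threshold.

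ELANE in NB4 cells was at 0.321, 0.430 and 1.39 FPKM with OGP46, against 0.504, 3.30 and 14.5 FPKM in the controls. The log2 fold change of -2.17 (SE 0.37, adjusted p = 0.0023 with the block, SE 1.01, adjusted p = 0.192 without it) was the 4th lowest of all genes, but it rested on these low levels. As a percentage of the Kasumi-1 control mean, ELANE was at 0.0335%, 0.220% and 0.962% in NB4 controls 1, 2 and 3 and the Kasumi-1 signal was at 0.0798%, 0.272% and 1.11%, in the same order. After subtraction of that signal, ELANE was at 0 in 5 of the 6 NB4 samples and at 0.244 FPKM in OGP46 sample 3, below the filter for testing. The plot of the proteases against this signal shows that PRTN3, AZU1 and CTSG lay far above it in each NB4 sample.

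**Figure D2:**
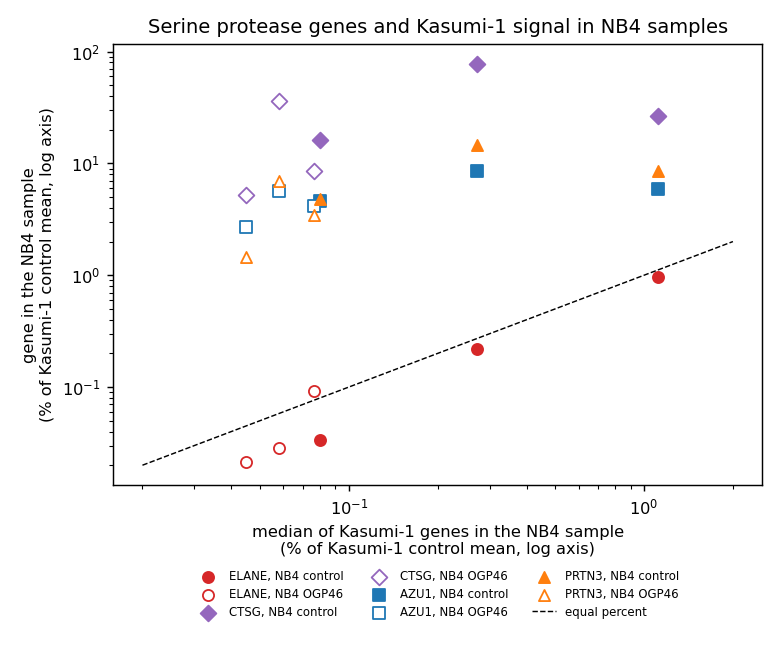
Level of 4 serine protease family genes in each NB4 sample (y axis, percent of the Kasumi-1 control mean, log axis) against the median level of 13 Kasumi-1 genes in the same sample (x axis, percent of the Kasumi-1 control mean, log axis), with filled symbols for controls, open symbols for OGP46 and a dashed line where both are equal. ELANE lies on or below the line in 5 of 6 samples and slightly above it in 1 (0.0921% against 0.0759%), and the other genes lie above it in every sample.

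MPO was at 1510, 2503 and 2271 FPKM in NB4 cells with OGP46, and only OGP46 sample 2 lay inside the range of the controls. The ratios of the pairs were 0.631, 0.753 and 0.764 and the log2 fold change was -0.49 (SE 0.08, adjusted p = 0.0015 with the block, adjusted p = 0.147 without it), below the fold threshold. Because MPO is so abundant, its mean differed by -801.8 FPKM between OGP46 and control, more than that of any other of the 10 genes in NB4. MPO made up 75.5% to 81.5% of the summed FPKM of the 10 genes in NB4 controls.

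MS4A3 was at 16.0, 40.2 and 23.7 FPKM in NB4 cells with OGP46, and OGP46 sample 2 was above controls 1 and 3. The ratios were 0.425, 0.662 and 0.613, and the log2 fold change was -0.84 (SE 0.11, adjusted p = 6.1e-04 with the block, adjusted p = 0.130 without it). CST7 was at 28.5, 51.1 and 54.8 FPKM, with a log2 fold change of -0.46 (SE 0.11, adjusted p = 0.0162 with the block) that stayed below the fold threshold. RNASE2 had the smallest fold change of the 10 genes in NB4. RNASE2 was at 127, 199 and 181 FPKM, a log2 fold change of -0.20 (SE 0.09, adjusted p = 0.130 with the block), with ratios of 0.727, 0.930 and 0.984. RNASE3 was at 13.7, 25.3 and 11.9 FPKM, a log2 fold change of -0.42 (SE 0.10, adjusted p = 0.0118 with the block), below the fold threshold.

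**Figure D3:**
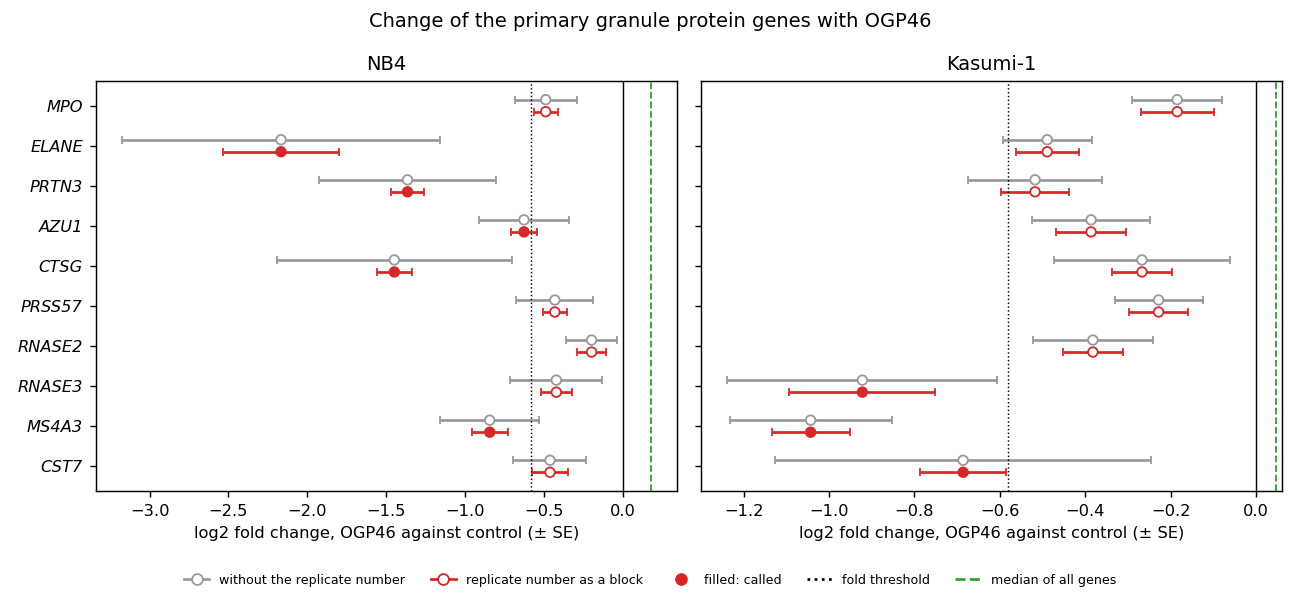
Log2 fold change of each gene, OGP46 against control, on the log2(FPKM + 0.1) scale in NB4 (left) and Kasumi-1 (right, another x range), with bars for the SE, grey for the fit without the sample numbers, red for the fit with the number as a block and filled symbols for called genes. All 20 pairs of points lie below 0 and below the median of all genes (green dashed line, 0.18 in NB4 and 0.05 in Kasumi-1), and the bars are shorter with the block, where 5 genes in NB4 and 3 in Kasumi-1 are called.

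In Kasumi-1 cells, the larger fold changes were in MS4A3, RNASE3 and CST7, which this line expresses at low levels, and the smaller ones were in the abundant granule genes. The fit without the sample numbers called 0 of 10 genes lower, against 0.0169% of all genes, and 0 higher, against 0.0169%. At an unadjusted p below 0.05, 6 of the 10 were lower. In 4 genes, MPO, ELANE, PRTN3 and MS4A3, all OGP46 samples lay below all controls, which 5.23% of all genes did. With the block, 3 of 10 were called lower, CST7, MS4A3 and RNASE3, against 0.346% of all genes (41 genes), and 0 higher, against 0.27% (32 genes). With median centring added, the split of all genes was 67 lower and 26 higher, and with TPM scaling added it was 46 lower and 52 higher. The median log2 fold change was -0.44 for the 10 genes and 0.05 for all genes. Leaving out 1 sample gave medians of the 10 genes from -0.55 (without control 3) to -0.25 (without control 2).

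MS4A3 fell most in Kasumi-1 cells, to 2.66, 1.73 and 1.55 FPKM, with ratios of 0.537, 0.460 and 0.426. Its log2 fold change was -1.04 (SE 0.09, adjusted p = 0.0021 with the block, SE 0.19, adjusted p = 0.0733 without it). With only genes of at least 1 FPKM tested, it was called also without the block (adjusted p = 0.0405). RNASE3 was at 0.544, 0.793 and 1.48 FPKM with OGP46. The log2 fold change was -0.92 (SE 0.17, adjusted p = 0.0261 with the block, adjusted p = 0.211 without it). CST7 was at 2.07, 3.89 and 1.31 FPKM, a log2 fold change of -0.69 (SE 0.10, adjusted p = 0.0111 with the block, adjusted p = 0.471 without it). The samples of RNASE3 and CST7 overlapped between the groups. All 3 genes were at 6.51 FPKM or less in every Kasumi-1 sample. When the NB4 signal was subtracted from the Kasumi-1 samples and the block kept, MS4A3 (-0.99), RNASE3 (-0.89) and CST7 (-0.66) were still called.

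The other 7 genes had smaller fold changes in Kasumi-1. ELANE was at 1035, 1131 and 1036 FPKM with OGP46, below every control, with ratios of 0.717, 0.659 and 0.766. Its log2 fold change of -0.49 (SE 0.07, adjusted p = 0.0123 with the block, SE 0.10, adjusted p = 0.0898 without it) did not reach the fold threshold. PRTN3 was at 2151, 2412 and 1792 FPKM, also below every control, a log2 fold change of -0.52 (SE 0.08, adjusted p = 0.0125 with the block, adjusted p = 0.170 without it). PRTN3 and ELANE kept a ratio of 1.73 to 2.13 to each other with OGP46, against 1.87 to 2.14 in the controls. AZU1 was at 762, 789 and 678 FPKM, a log2 fold change of -0.39 (SE 0.08, adjusted p = 0.0377 with the block). RNASE2 was at 24.7, 30.05 and 28.8 FPKM, a log2 fold change of -0.38 (SE 0.07, adjusted p = 0.0248 with the block). In both of these genes 1 or more OGP46 samples lay inside the range of the controls. MPO, at 4547, 4535 and 4184 FPKM, PRSS57, at 420, 416 and 378 FPKM, and CTSG, at 100.4, 105 and 69.7 FPKM, had log2 fold changes of -0.18, -0.23 and -0.27 and adjusted p of 0.229, 0.0939 and 0.0655 with the block. MPO lay below every control, while PRSS57 and CTSG overlapped with them.

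The difference in response between the lines was tested as the interaction of line and treatment in the 12 samples. Without the block, 0 of 12309 genes were called, 1348 had an unadjusted p below 0.05, and none of the 10 genes was among these. With the block, CTSG and PRTN3 were called as falling more in NB4 than in Kasumi-1, where 0.114% of all genes were (14 genes). The difference in log2 fold change was -1.18 for CTSG (SE 0.15, adjusted p = 0.0092) and -0.85 for PRTN3 (SE 0.15, adjusted p = 0.0241). CTSG was called also when any 1 pair of either line was left out, whereas PRTN3 was not called without NB4 pair 3 or without any of the Kasumi-1 pairs. For ELANE the difference was -1.68 (SE 0.54, adjusted p = 0.151 with the block). After subtraction of the Kasumi-1 signal its sign turned, to 1.08. On the NB4 side that value rested on OGP46 sample 3 alone, at 0.244 FPKM, since ELANE was at 0 in all other NB4 samples. It therefore does not measure a response of ELANE in NB4. For the genes with the larger fold in Kasumi-1 no difference was called, at 0.50 (SE 0.23, adjusted p = 0.281) for RNASE3, 0.23 (SE 0.18, adjusted p = 0.517) for CST7 and 0.20 (SE 0.16, adjusted p = 0.535) for MS4A3, all with the block.

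The share of the 10 genes in the FPKM of a sample was also lower with OGP46. In NB4 it was 1.15% to 1.72% in controls and 0.687% to 1.16% with OGP46, and in Kasumi-1 it was 3.60% to 4.03% in controls and 2.92% to 3.27% with OGP46. The ranges overlapped narrowly in NB4 and did not overlap in Kasumi-1. The total of all genes in NB4 had a mean of 253507 FPKM in controls and 276962 FPKM with OGP46, beside the all-gene median given above.

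The genes around the protease cluster on chromosome 19 were described by position. PLPPR3, a phospholipid phosphatase-related gene, lies 3120 bases before AZU1 by the GENCODE positions. It went from a mean of 19.5 to 11.9 FPKM in NB4 and from 74.4 to 55.9 FPKM in Kasumi-1. Its log2 fold changes were -0.70 in NB4 (SE 0.09, adjusted p = 3.9e-04) and -0.41 in Kasumi-1 (SE 0.05, adjusted p = 0.0076), both with the block, and the first was called. CFD, the complement factor D gene that begins 3396 bases after ELANE ends, went from 23.9 to 20.7 FPKM in NB4 and from 232 to 224 FPKM in Kasumi-1, with log2 fold changes of -0.19 and -0.05 (adjusted p = 0.117 and 0.689 with the block). Of the flanking genes, PTBP1 had log2 fold changes of 0.14 and -0.03, MED16 of 0.07 and -0.02, and R3HDM4 of 0.20 and -0.01 in NB4 and Kasumi-1, none of them called. CFD was also lower in NB4 than in Kasumi-1 controls (log2 difference -3.34, SE 0.25), as was PLPPR3 (-1.94, SE 0.15), so the cluster and both of its direct neighbours were lower in NB4. The adjusted p of these differences was 2.8e-06 for CFD and 3.4e-06 for PLPPR3.

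**Figure D4:**
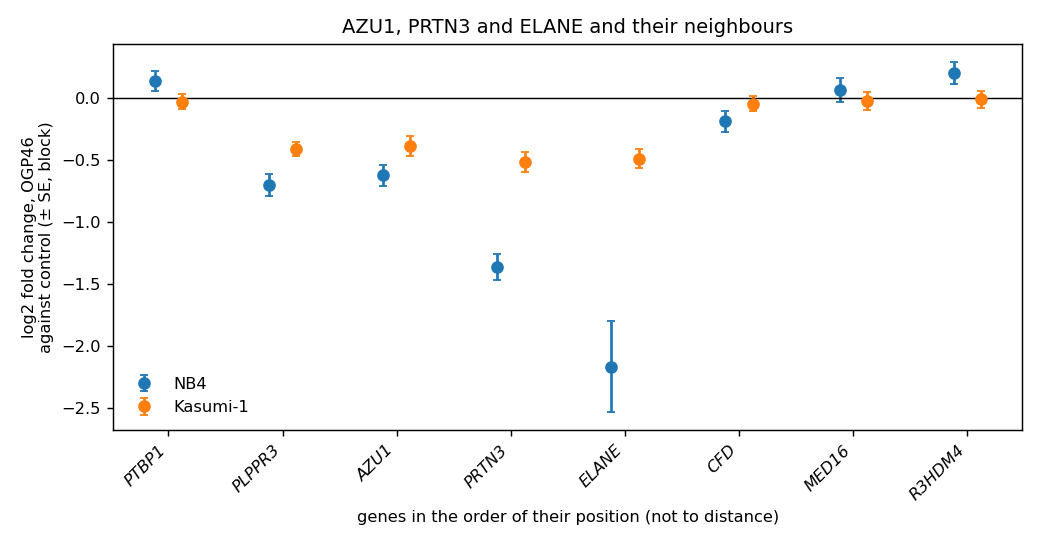
Log2 fold change, OGP46 against control, with its SE from the fit with the block, for AZU1, PRTN3, ELANE and their tested neighbours in the order in which they lie on chromosome 19, spaced evenly. From PLPPR3 to ELANE the points lie below 0 in both lines, between -0.39 and -0.52 in Kasumi-1 and between -0.62 and -2.17 in NB4, and the outer genes lie near 0. The point at -2.17 is ELANE, whose level in NB4 was not resolved from the Kasumi-1 signal. The NB4 points of PLPPR3, AZU1 and PRTN3 lie between -0.62 and -1.36.

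PLPPR3 was also the gene whose pattern was most like that of the 10 genes. Over the 12 samples, centred on each line, its log2 level had a Pearson r of 0.975 with the mean of the 10 genes. Among 8795 genes averaging at least 1 FPKM in each line, the 10 included, this was the highest outside the 10 genes. The genes next in order were PCYT2 (0.967), LRFN4 (0.958), DPH2 (0.952) and CD320 (0.949). Of the 10 genes themselves, AZU1 (0.978), PRTN3 (0.977) and PRSS57 (0.972) followed their own mean most closely, and RNASE3 (0.556), CST7 (0.702) and ELANE (0.705) least. That mean holds each of the 10 genes, so their r cannot be set beside that of PLPPR3. For ELANE, r was 0.721 in NB4, where its level was not resolved, and 0.984 in Kasumi-1. The 12 points share their libraries and the treatment, so these values are descriptions.

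Of 20 further genes for azurophil granule content and handling, 18 were tested in NB4 cells, and their log2 fold changes had a median of 0.29. The fit with the block called 1 of the 18 higher, against 5.06% of all genes, and 2 lower, against 1.15%. With the block, SERPINA1, the alpha-1-antitrypsin gene, was called higher (1.14 to 2.51 FPKM, log2 fold change 1.06, adjusted p = 4.6e-04), also without the block. DEFA4, a defensin gene, and SERPINB10, a protease inhibitor gene, were called lower, with log2 fold changes of -1.84 and -1.06 (adjusted p = 0.0065 and 0.0144), both at means below 1 FPKM. LYZ, the lysozyme gene, was at 318 FPKM in controls and 314 FPKM with OGP46 (log2 fold change -0.01). CTSC, which encodes the cathepsin that activates the serine proteases, had a log2 fold change of 0.28, and SRGN, the serglycin gene that packs them into granules, one of 0.08. In Kasumi-1 cells, 16 of the 20 genes were tested, with a median log2 fold change of 0.15. With or without the block 0 were called, although 7 had an unadjusted p below 0.05 with it. None of these 7 reached the fold threshold as well, and 185 of 11835 genes passed both. Few genes were called in this line at all, with 0.346% of all genes lower and 0.27% higher with the block.

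Of a list of 15 myeloid transcription factors tested in NB4, CEBPB (10.9 to 19.1 FPKM, 0.82 on the log2 scale, adjusted p = 4.5e-04 with the block) and EGR1 (0.894 to 2.46 FPKM, 1.31, adjusted p = 2.2e-04 with the block) were called higher, with and without the block, and 0 were called lower. Among all genes in NB4, 5.06% were called higher and 1.15% lower with the block, and 1.45% and 0.111% without it. CEBPA (0.02), CEBPE (0.02), SPI1, which encodes PU.1 (0.27), MYB (-0.18), GFI1 (-0.10) and RUNX1 (0.13) had log2 fold changes below the threshold in NB4. In Kasumi-1, EGR1 was called higher with the block (0.87, adjusted p = 0.0122), and 0 of 14 factors were called lower. Among all genes in that line, 0.27% were called higher and 0.346% lower with the block. Between the controls, 5 of the 15 were called higher in NB4 (CBFB, CEBPA, IRF8, KLF4 and RARA), where 22.7% of all genes were. Another 2 were called lower (GFI1 and RUNX1), where 29.7% of all genes were. CEBPA was higher in NB4 (log2 difference 3.23, SE 0.13), RUNX1 (-1.25, SE 0.08) and GFI1 (-1.77, SE 0.11) were lower in NB4, and SPI1 was at 31.0 and 30.7 FPKM. In values per gene symbol, transcripts of RUNX1 and of the AML1-ETO fusion in Kasumi-1 cannot be told apart. The same holds for RARA and the PML-RARα fusion in NB4.

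Genes of later granules and of other myeloid cells moved in their own ways in NB4 cells. The share of all genes called in this line was 5.06% higher and 1.15% lower with the block, and 1.45% and 0.111% without it. Of 16 secondary and tertiary granule genes, 6 were tested. With the block, MMP9, the gelatinase B gene (84.7 to 254 FPKM, log2 fold change 1.54, adjusted p = 1.1e-06), CYBB (0.63) and MMP25 (0.68) were called higher and CHI3L1 (-0.70) lower, and 0 were called without it. PRG2, the eosinophil major basic protein gene, was called lower with the block (170 to 110 FPKM, log2 fold change -0.78, adjusted p = 6.4e-04), the only one called of 7 eosinophil and mast cell granule genes tested. The markers of monocytes and macrophages CD14, CSF1R, CD68, ITGAM and ITGAX, 5 tested of a list of 7, were all called higher with the block and 3 of them without it. The summed level of this list lay between 14.0 and 14.7 FPKM in controls and between 23.5 and 26.7 FPKM with OGP46. CD163 and MRC1, which mark mature macrophages, were listed at 0 in every NB4 sample. The part of these markers in the lower level of the granule genes was not tested. Among markers of other cells in NB4, CD3D was called higher with the block (16.7 to 27.7 FPKM), while CD2 was listed at 0. CD3G was at a mean of 0.0565 FPKM in controls and 0.200 FPKM with OGP46, higher in 3 of 3 pairs, but its fold of 0.91 on the log2 scale was not called (adjusted p = 0.0504, block included). CD3E was at means of 0.0203 and 0.0209 FPKM. The erythroid list summed to at most 0.184 FPKM, the megakaryocyte list to at most 1.20 FPKM and the B cell list to 7.74 to 15.8 FPKM in NB4, mostly CD79B, with MS4A1 listed at 0. Of the eosinophil markers beside PRG2, EPX was at 2.71 FPKM in NB4 controls and CLC was listed at 0. In Kasumi-1, 0 of 6 secondary and tertiary granule genes and 0 of 4 eosinophil and mast cell granule genes were called, with or without the block. The same held for the monocyte and macrophage markers, 0 of 3. Kasumi-1 control 2 held NB4 signal at 1.57% of the NB4 control level. How far that signal made up the levels of these lists in Kasumi-1 was not tested. Only 0.346% of all genes were called lower and 0.27% higher in this line with the block, so counts of 0 do not set these short lists apart. The summed level of the monocyte and macrophage list lay between 9.58 and 12.6 FPKM in controls and between 13.5 and 15.5 FPKM with OGP46.

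**Figure D5:**
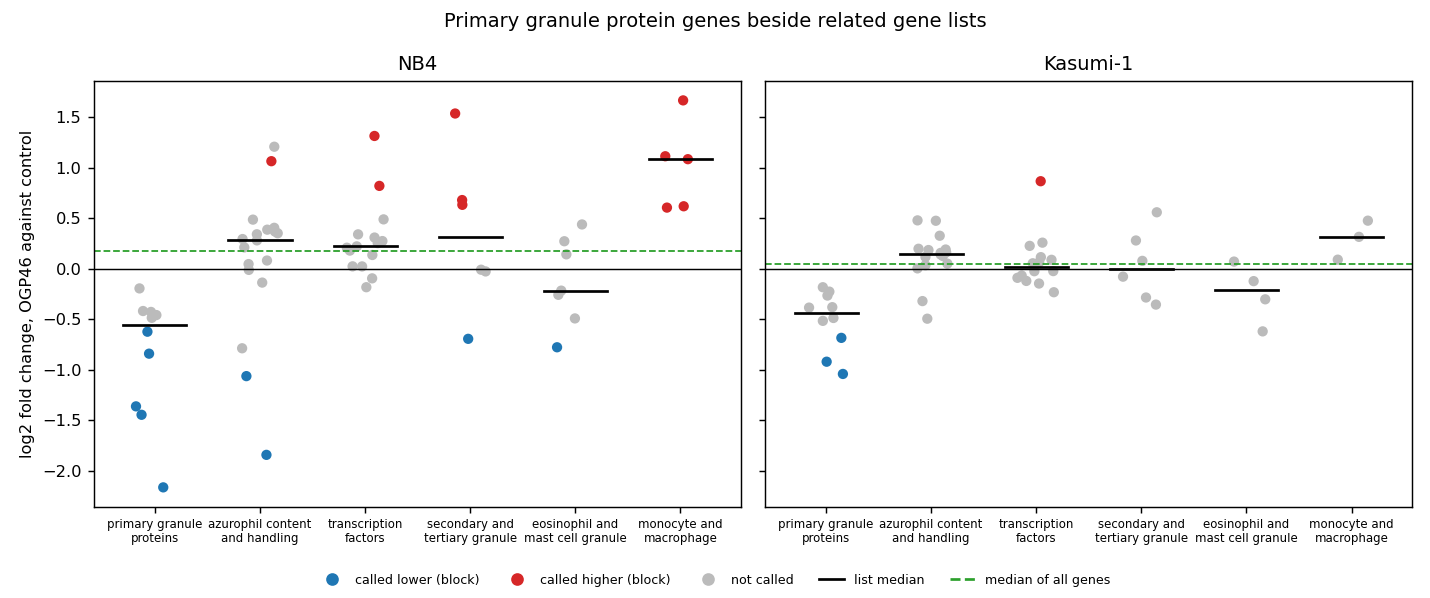
Log2 fold change, OGP46 against control, of each tested gene of 6 lists in NB4 (left) and Kasumi-1 (right), with black bars for the list medians, a green dashed line for the median of all genes and colours for the genes called with the block. The primary granule protein genes have medians of -0.56 and -0.44 and no gene above 0, while the list of azurophil content and handling has medians of 0.29 and 0.15.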

How the data were processed

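mRNA of 12 samples was sequenced after poly(A) selection, with stranded libraries. The authors deposited 1 FPKM value per gene symbol and sample, and the submitters' processing notes name Trimmomatic, HISAT2, Cufflinks, HTSeq and hg38 without roles or versions. The values are normalized by exon length and mapped fragments, and 632 of them lie above 0 and below 1e-04, so reads were not counted whole. No counting interval or detection floor can be given, and precision rests on 3 samples per group. In each sample 27 symbols turned into dates were left out.

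Groups came from the labels. log2(FPKM + 0.1) was compared by limma 3.58.1 in R 4.3.3 with a mean-variance trend, over genes averaging 0.1 FPKM or more. Genes were called at a Benjamini-Hochberg adjusted p below 0.05 over all genes tested and a log2 fold change of 0.58 or more up or down (1.49-fold), and for the interaction at the adjusted p alone. With 3 samples against 3, an exact permutation test of a single gene cannot go below p = 0.10, so none was used. Same-numbered samples of a line were taken as pairs because their deviations from the group means correlated across genes (r of 0.35, 0.62 and 0.20 in NB4 and 0.22, 0.16 and 0.40 in Kasumi-1). The highest correlation of differently numbered samples was 0.22 in NB4, above that of pair 3, and 0.10 in Kasumi-1. The labels do not say what the number marks.

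The signal of the other line was the median ratio, over genes with at least 20 FPKM in every sample of that line and below 0.1 FPKM in at least 1 sample of the tested line, to that line's control mean. The genes named are the 10 granule genes, lists of related genes and cell markers, the 3 protein-coding neighbours on either side and the 10 most alike genes. Members and lists were chosen with earlier results of these data known. Alternatives were other pseudocounts, filters, scalings and moderation, a joint model, the block, leaving out samples or pairs and subtracting the signal. The tests were tried on simulated data with independent noise in each sample. Same-numbered samples shared no effect there, so the block was not tried on paired data. The result of 1 gene of the marker lists is not reported here, and it was left out of its list.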

Additional observations from a re-analysis of the deposited data

Results flagged for a closer look

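The response of CTSG to OGP46 differed between the cell lines in the interaction test with the sample number as a block. The log2 fold change was -1.45 in NB4 and -0.27 in Kasumi-1, a difference of -1.18 (SE 0.15, limma adjusted p = 0.0092). The response of PRTN3 differed in the same test, with -1.36 in NB4 and -0.52 in Kasumi-1, a difference of -0.85 (SE 0.15, adjusted p = 0.0241). Both genes were lower in 3 of 3 pairs of each line, so the lines differed in size and not in direction. Without the block the adjusted p of these differences was 0.624 for CTSG and 0.638 for PRTN3. CTSG kept its call whichever pair was left out, but PRTN3 was not called without NB4 pair 3 or without any of the Kasumi-1 pairs. With the Kasumi-1 signal taken from the NB4 samples and the NB4 signal from the Kasumi-1 samples, and with the block, the differences were -1.17 (adjusted p = 0.0101) and -0.79 (adjusted p = 0.0442).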

How the results depend on the processing

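With only 3 samples per group and no read counts, no change could be tested within a pair. In NB4, 0 of the 10 genes were called lower as deposited, and leaving out 1 sample gave 0 to 3 (3 without OGP46 sample 2). The replicate block gave 5, with median centring 9, with TPM scaling 7, with the Kasumi-1 signal subtracted 3, and without pair 1, 2 or 3 it gave 4, 5 or 6. In fits of 1 line with a pair left out, limma draws mostly on the spread of all genes. Such counts therefore do not show how firm the calls are. For PRTN3 in NB4 the limma adjusted p went from 1.4e-05 with all pairs to 2.1e-18 without pair 2. In Kasumi-1, 0 were called, leaving out any 1 sample also gave 0, and a minimum mean of 1 FPKM gave 1. The replicate block gave 3, with median centring 4, with TPM scaling 3, with the NB4 signal subtracted 3, and without pair 1, 2 or 3 it gave 3, 2 or 3. For the interaction, 0 were called, and the replicate block gave 2, with median centring 3, with TPM scaling 3, with both signals subtracted 2, without NB4 pair 1, 2 or 3 it gave 3, 2 or 1, and without each Kasumi-1 pair 1. Between the controls the block changed no call, but CTSG (adjusted p = 0.123) and MPO (adjusted p = 0.396) were not called without a filter on low values, nor MPO after quantile normalization (adjusted p = 0.120). No gene changed sign with OGP46 in either line under any setting in which it was tested, though MPO in Kasumi-1 was at 0.0 after quantile normalization. ELANE in NB4 missed the filter with the Kasumi-1 signal subtracted. Of the interaction values, MS4A3 turned to -0.028 with a pseudocount of 1. ELANE turned to 1.08 with the Kasumi-1 or both signals subtracted, which left it above 0 in NB4 only in OGP46 sample 3. When 1 sample was left out, AZU1 ranged from -0.489 to 0.0443 and PRSS57 from -0.428 to 0.0141 (both above 0 without NB4 OGP46 sample 1), MS4A3 from -0.147 to 0.515 (below 0 without NB4 OGP46 sample 2) and CST7 from -0.192 to 0.699 (below 0 without Kasumi-1 control 2, and at -0.126 without Kasumi-1 OGP46 sample 3). The cause was not tested. Over all settings, the genes called in NB4 ranged from 0 to 203 lower and 0 to 708 higher, in Kasumi-1 from 0 to 88 lower and 0 to 69 higher, and in the interaction from 0 to 47 lower and 0 to 227 higher in NB4.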
